A study of Rattus norvegicus and Mus musculus with 24 samples.

Results

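APOB, A1CF and 8 further genes of lipoprotein assembly and transport were followed in kidney RNA of animals with and without Ctns, the gene of the lysosomal cystine transporter. The 10 genes were APOB, MTTP, A1CF, APOBEC1, APOE, APOA1, APOA4, APOM, APOD and APOH. They were found by matching their symbols in the deposited tables, where all 10 stood among 17376 mouse symbols and 9 among 14931 rat symbols. APOA4 was not analysed here in the rat. The members were chosen on their measured values in the Ctns KO against Ctns WT contrast, over all animals and within rats 17 to 24 and 25 to 32. Values from those contrasts, and from other comparisons of the same animals, are therefore given for the 10 genes as a description, with no test.

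Bulk RNA sequencing covered 4 Ctns KO and 4 Ctns WT mice and 8 Ctns KO and 8 Ctns WT rats, with 1 library per animal. The mice were on a C57BL/6 background and the rats on a Sprague-Dawley background, and controls were littermates matched for age and sex, per the study's methods. No treatment is given for any of these animals, and their age at sampling is not given in the sources used here. A general statement on animals in the study limits its mice to females of a few set ages, without saying which of these ages was sequenced. The tissue is called kidney cortex in the methods, whereas the sample labels name cortex, proximal tubule cells and a protocol for dissected tubules. The mice are numbered 1 to 8 and the rats 17 to 32, with even and odd rat numbers for Ctns KO and Ctns WT. Rats 17 to 24 and rats 25 to 32 each hold 4 animals of each genotype, and what separates these number ranges is not given.

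Apolipoproteins are the protein coats of lipoproteins. Liver, intestine and, to a lesser extent, the proximal tubule of the kidney build particles around APOB, the structural protein of triglyceride-rich lipoproteins, after MTTP (microsomal triglyceride transfer protein) has loaded it with lipid. APOBEC1, a cytidine deaminase, edits a single cytidine of the APOB transcript to uridine with an RNA-binding cofactor such as A1CF, which turns a glutamine codon into a stop codon and gives a shorter protein. The editing site is shown because both partners of the reaction, A1CF and APOBEC1, are among the genes described.

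The site lies in exon 26 of 29 of mouse Apob, on the + strand of chromosome 12 in mm10, with the edited cytidine at position 8008054. It is the first base of codon 2179 of 4505. In the sequence of chr12:8008024-8008084, taken from the GENCODE vM21 transcript, capitals mark the CAA codon and the mooring motif TGATCAGTA downstream of it.
Apob editing site: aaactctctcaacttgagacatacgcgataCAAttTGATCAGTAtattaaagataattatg
The motif was searched on the transcript strand only. It occurred once in the coding sequence of this Apob transcript. Counted over whole transcripts, untranslated ends included, it was found in 438 of 58797 mouse coding transcripts (0.745%). Reads per gene do not show editing, so the edited share was not measured.

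Of the 10 genes, 7 had an entry in the RefSeq table of rat promoters (GRCr8), with 9 start sites. The promoters of A1CF and APOM are shown because liver-type nuclear factors, whose genes are described further on, bind motifs of the kind marked in them. Each sequence is the 250 bases before the start site. Capitals mark CAAAG, the short form of the HNF4 motif, on either strand (CTTTG on the other), and GTTAAT, the short form of the HNF1 motif, searched on both strands.
A1CF, chr1:239149243-239149492, + strand: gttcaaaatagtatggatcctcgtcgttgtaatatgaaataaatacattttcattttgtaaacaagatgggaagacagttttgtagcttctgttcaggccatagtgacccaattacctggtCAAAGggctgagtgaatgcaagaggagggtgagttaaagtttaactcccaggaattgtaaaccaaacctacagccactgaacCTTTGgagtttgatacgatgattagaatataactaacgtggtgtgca
APOM, chr20:3695368-3695617, + strand: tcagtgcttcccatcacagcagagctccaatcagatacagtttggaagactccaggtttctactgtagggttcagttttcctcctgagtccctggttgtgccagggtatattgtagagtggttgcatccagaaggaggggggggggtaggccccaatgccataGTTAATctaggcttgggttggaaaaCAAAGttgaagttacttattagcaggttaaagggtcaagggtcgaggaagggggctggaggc
CAAAG was present upstream of A1CF, APOD, APOH and APOM, and in 48.2% of 33469 rat promoters of this length. GTTAAT was present upstream of APOM alone among the members, and in 6.45% of all promoters. The longer forms GTTAATNAT (0.666% of promoters) and CAAAGTCCA (0.338%) were in none of the 7 members. The short forms were chosen after the sequences had been seen, and a match describes letters, not binding.

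The mouse values are deposited scaled values, in which a value of 1 is the level of the gene at the library's 75th percentile. Each stands for the reads on the gene plus 0.5, divided by that percentile plus 0.5, so the reads could be recovered. The rat values are CPM values (reads scaled to the library total) with totals adjusted by TMM, a scaling that aligns the bulk of genes between libraries. Mouse libraries held 19309371 to 44449845 reads on genes, and rat libraries 24684097 to 40629873. CTNS, the targeted gene, had scaled values of 0.319 to 0.342 in Ctns KO and 0.824 to 1.03 in Ctns WT mice. In rats, CTNS ranged from 16.8 to 22.2 CPM in Ctns KO and from 19.2 to 27.8 CPM in Ctns WT animals, so its level did not separate the rat genotypes. In bulk tissue, fewer cells of a type and less RNA per cell cannot be told apart.

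Per length of exon, the 10 genes covered a wide span of levels in the mouse kidney. RPKM values (reads scaled to exon length and library total) were computed from the recovered reads and the exonic length in GENCODE vM21. APOE, a ligand of lipoprotein receptors made in many tissues, led with 279.5 ± 30.8 RPKM (SD, n = 4) in Ctns WT mice, ahead of APOM, a lipocalin on high-density lipoprotein, with 100.3 ± 11.8 RPKM. APOB followed with 43.5 ± 12.4 RPKM and A1CF with 24.2 ± 1.84 RPKM, and the ranges of these 4 genes did not overlap each other. MTTP (7.64 ± 1.88 RPKM), APOA4 (4.81 ± 2.29 RPKM) and APOBEC1 (3.09 ± 0.395 RPKM) came next, and within this trio each overlapped its neighbour. APOA1, the main protein of high-density lipoprotein, APOD and APOH stood at the bottom with 0.555 ± 0.268, 0.185 ± 0.118 and 0.0782 ± 0.0634 RPKM, again with overlapping neighbours. In Ctns KO mice APOE (275.1 ± 44.8 RPKM), APOM (80.3 ± 7.80 RPKM), APOB (25.9 ± 7.005 RPKM) and A1CF (18.2 ± 2.31 RPKM) kept this order, although APOB and A1CF then overlapped.

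In mice, APOB was lower on average in Ctns KO kidneys. Its scaled values were 11.4, 13.3, 17.6 and 9.19 in Ctns WT mice 1, 2, 4 and 7, and 7.90, 6.99, 4.81 and 9.39 in Ctns KO mice 3, 5, 6 and 8. The highest Ctns KO mouse lay just above the lowest Ctns WT mouse, so the groups overlapped. The log2 fold change, on the log2(value + 1) scale of the limma fit, was -0.74 (SE 0.23), a fall of the mean from 12.9 ± 3.56 to 7.27 ± 1.92 (SD, n = 4 each). MTTP, the lipid transfer partner of APOB, had scaled values of 1.32, 0.890, 1.05 and 0.765 in the same Ctns WT mice and of 0.730, 0.558, 0.534 and 0.707 in the Ctns KO mice. These groups did not overlap, with a log2 fold change of -0.29 (SE 0.09). That scale understates the change of a gene near a value of 1, and edgeR on the recovered reads gave -0.69 (SE 0.18) for MTTP and -0.84 (SE 0.27) for APOB.

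The genes of the editing reaction went apart in mice. A1CF, the RNA-binding cofactor, had scaled values of 1.72, 2.07, 2.02 and 1.95 in Ctns WT mice and of 1.33, 1.35, 1.25 and 1.63 in Ctns KO mice. Every Ctns KO mouse lay below every Ctns WT mouse, with a log2 fold change of -0.30 (SE 0.06). APOBEC1, the deaminase, had scaled values of 0.194, 0.203, 0.160 and 0.156 in Ctns WT mice and of 0.237, 0.292, 0.242 and 0.259 in Ctns KO mice. Here every Ctns KO mouse lay above every Ctns WT mouse, with a log2 fold change of 0.09 (SE 0.02). Because 1 is added before the logarithm, the change of a gene with low values is understated, and edgeR on the recovered reads gave 0.52 (SE 0.11) for APOBEC1 and -0.50 (SE 0.09) for A1CF.

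Among the other apolipoproteins of the mouse, APOM stood out by groups that did not overlap. Its scaled values were 2.30, 2.45, 1.81 and 2.09 in Ctns WT mice and 1.75, 1.68, 1.43 and 1.71 in Ctns KO mice, a log2 fold change of -0.26 (SE 0.07), or -0.41 (SE 0.09) by edgeR on the recovered reads. APOE had a log2 fold change of -0.10 (SE 0.12) with overlapping groups, at 12.7 ± 1.34 in Ctns WT and 11.9 ± 1.82 in Ctns KO mice (scaled values, SD, n = 4 each). APOA4, a protein of intestinal lipoproteins, had scaled values of 0.121, 0.1003, 0.252 and 0.269 in Ctns WT mice. Its values in Ctns KO mice, 0.107, 0.122, 0.119 and 0.122, lay within that range, close to the lower pair of Ctns WT mice. The reads of 3 genes were few in mice, with 3 to 41 for APOA1, 2 to 37 for APOD, a lipocalin carrier of small lipids, and 0 to 11 for APOH, a plasma glycoprotein that binds phospholipid. At that depth a difference in these 3 genes was not detectable beyond the spread between mice.

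**Figure D1:**
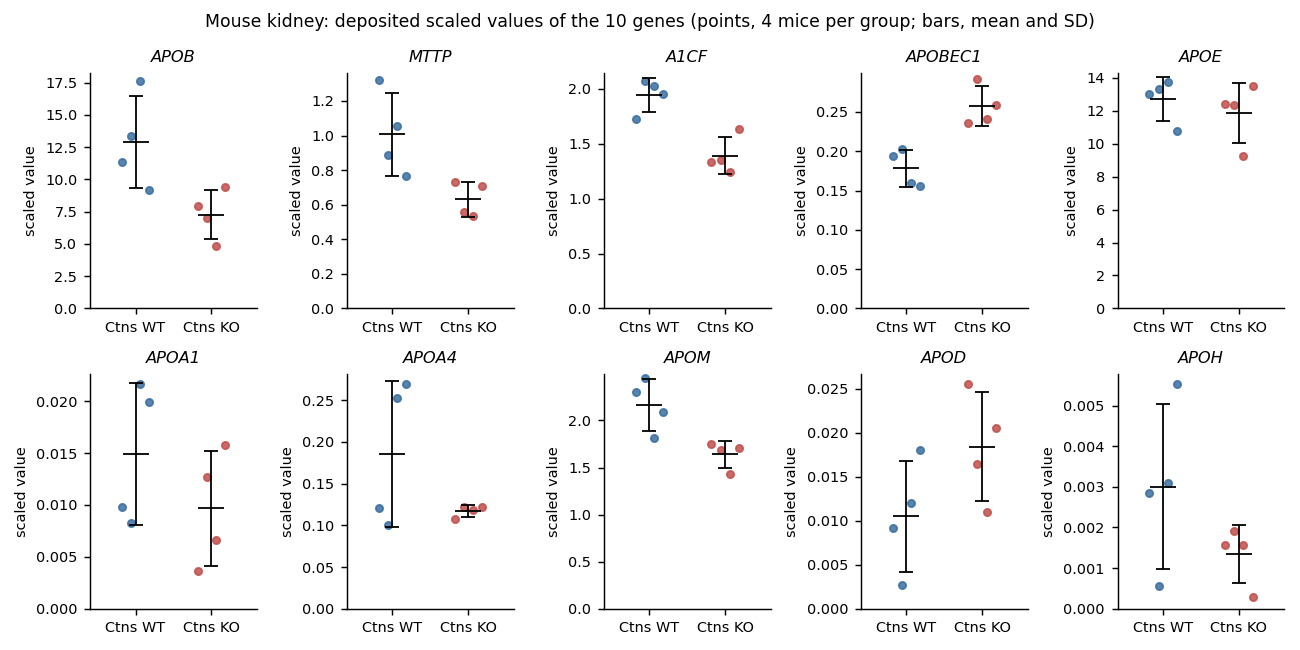
Deposited scaled values (vertical axis, no unit, from 0) of the 10 genes in 4 Ctns WT mice (blue) and 4 Ctns KO mice (red), with 1 point per mouse and black bars for the mean and SD. The groups are apart for MTTP, A1CF and APOM, with Ctns KO lower, and for APOBEC1, with Ctns KO higher.

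Of the 10 genes in the mouse fit, 1 was past an adjusted p of 0.05 as higher (APOBEC1) and 1 as lower (A1CF), against 3.5% of all 17376 symbols called higher and 0.817% called lower. The groups did not overlap for 4 of the 10, against 11.6% of all symbols. With edgeR on recovered reads, which called 6.06% of genes higher and 2.85% lower, APOM was also called lower. These counts describe genes that were picked on this contrast. The call for A1CF was lost when any 1 of Ctns KO mice 3, 5 and 6 or Ctns WT mice 2, 4 and 7 was left out, with log2 fold changes of -0.30 to -0.27, and that for APOBEC1 when any 1 of the 8 mice was left out, with 0.08 to 0.10. In the mouse annotation, exons of MTTP overlap those of Trmt10a and Gm43691 on the opposite strand, exons of APOA4 those of Gm10680 and Gm47528 and exons of APOH those of Prkca, and whether the counting used strand is not given in the sources used here.

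In rats, APOB depended on the number range. Among rats 17 to 24 it was at 11.3, 7.28, 5.69 and 9.57 CPM in Ctns WT rats 17, 19, 21 and 23, and at 5.59, 14.4, 10.5 and 7.10 CPM in Ctns KO rats 18, 20, 22 and 24. Among rats 25 to 32 it was at 20.4, 38.6, 24.5 and 16.6 CPM in Ctns WT rats 25, 27, 29 and 31, and at 13.4, 8.11, 9.46 and 9.06 CPM in Ctns KO rats 26, 28, 30 and 32. The 4 Ctns WT rats of the higher numbers stood above all 12 other rats, while the other 3 groups overlapped. The log2 fold change of Ctns KO against Ctns WT was 0.16 (SE 0.33) in rats 17 to 24, -1.32 (SE 0.25) in rats 25 to 32 and -0.79 (SE 0.33) over all 16 rats.

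MTTP was lower in Ctns KO rats of both ranges. It was at 2.01, 2.12, 1.88 and 2.35 CPM in Ctns WT rats 17 to 23 and at 1.21, 1.49, 0.845 and 0.988 CPM in Ctns KO rats 18 to 24. In the higher numbers it was at 1.45, 1.14, 1.20 and 1 CPM in Ctns WT rats and at 0.529, 0.579, 0.583 and 0.688 CPM in Ctns KO rats. Within each range the genotypes did not overlap, whereas over all 16 rats they did, since Ctns WT rats 25 to 31 lay within the span of Ctns KO rats 18 to 24. The log2 fold changes were -0.87 (SE 0.20) in rats 17 to 24, -1.01 (SE 0.21) in rats 25 to 32 and -0.93 (SE 0.24) over all rats, on 17 to 75 reads per rat.

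A1CF was lowest in the Ctns KO rats of the higher numbers. Its levels were 19.4, 18.5, 13.3 and 19.8 CPM in Ctns WT rats 17 to 23 and 12.6, 13.4, 16.3 and 12.3 CPM in Ctns KO rats 18 to 24, with overlap. They were 16.4, 24.9, 12.3 and 9.34 CPM in Ctns WT rats 25 to 31 and 5.94, 3.85, 7.09 and 2.39 CPM in Ctns KO rats 26 to 32, without overlap. The log2 fold changes of Ctns KO against Ctns WT were -0.37 (SE 0.13) in rats 17 to 24, -1.70 (SE 0.36) in rats 25 to 32 and -0.86 (SE 0.32) over all rats. APOBEC1, the deaminase, stayed within a narrow span of 11.6 to 15.97 CPM over all 16 rats. Its log2 fold changes were 0.05 (SE 0.09) in rats 17 to 24, 0.04 (SE 0.09) in rats 25 to 32 and 0.04 (SE 0.07) over all rats.

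The abundant apolipoproteins of the rat kidney overlapped between genotypes in both ranges. APOE was at 491, 554, 491 and 539 CPM in Ctns WT rats 17 to 23 and at 492, 892, 503.8 and 698 CPM in Ctns KO rats 18 to 24, a log2 fold change of 0.33 (SE 0.19). In the higher numbers it was at 956, 995, 1017 and 1002 CPM in Ctns WT rats and at 971, 1300, 963 and 906 CPM in Ctns KO rats, a log2 fold change of 0.06 (SE 0.11). APOM ranged from 389.5 to 577.8 CPM in Ctns WT rats (median 469) and from 268 to 494 CPM in Ctns KO rats (median 435). Its log2 fold changes were -0.02 (SE 0.10) in rats 17 to 24 and -0.32 (SE 0.16) in rats 25 to 32.

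The scarce apolipoproteins were near the limit of detection in at least 1 rat group. APOD had 0 reads in all 4 Ctns WT rats of numbers 17 to 23 and 1, 1, 4 and 4 reads in Ctns KO rats 18, 20, 22 and 24. In the higher numbers it had 1, 3, 0 and 3 reads in Ctns WT rats and 10, 11, 9 and 7 reads in Ctns KO rats. The genotypes did not overlap in either range, but the filter on low counts kept APOD out of every main rat fit. Without that filter, edgeR called APOD higher in Ctns KO over all 16 rats, on 0 to 11 reads per rat. APOH had 5 to 8 reads in Ctns WT rats 17 to 23, 1 to 8 reads in Ctns KO rats 18 to 24, 62 to 83 reads in Ctns WT rats 25 to 31 and 60 to 85 reads in Ctns KO rats 26 to 32. The jump of APOH went with the number range in both genotypes, and its log2 fold change of Ctns KO against Ctns WT within rats 25 to 32 was -0.04 (SE 0.24). APOA1 had 4 to 21 reads per rat and overlapping groups.

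**Figure D2:**
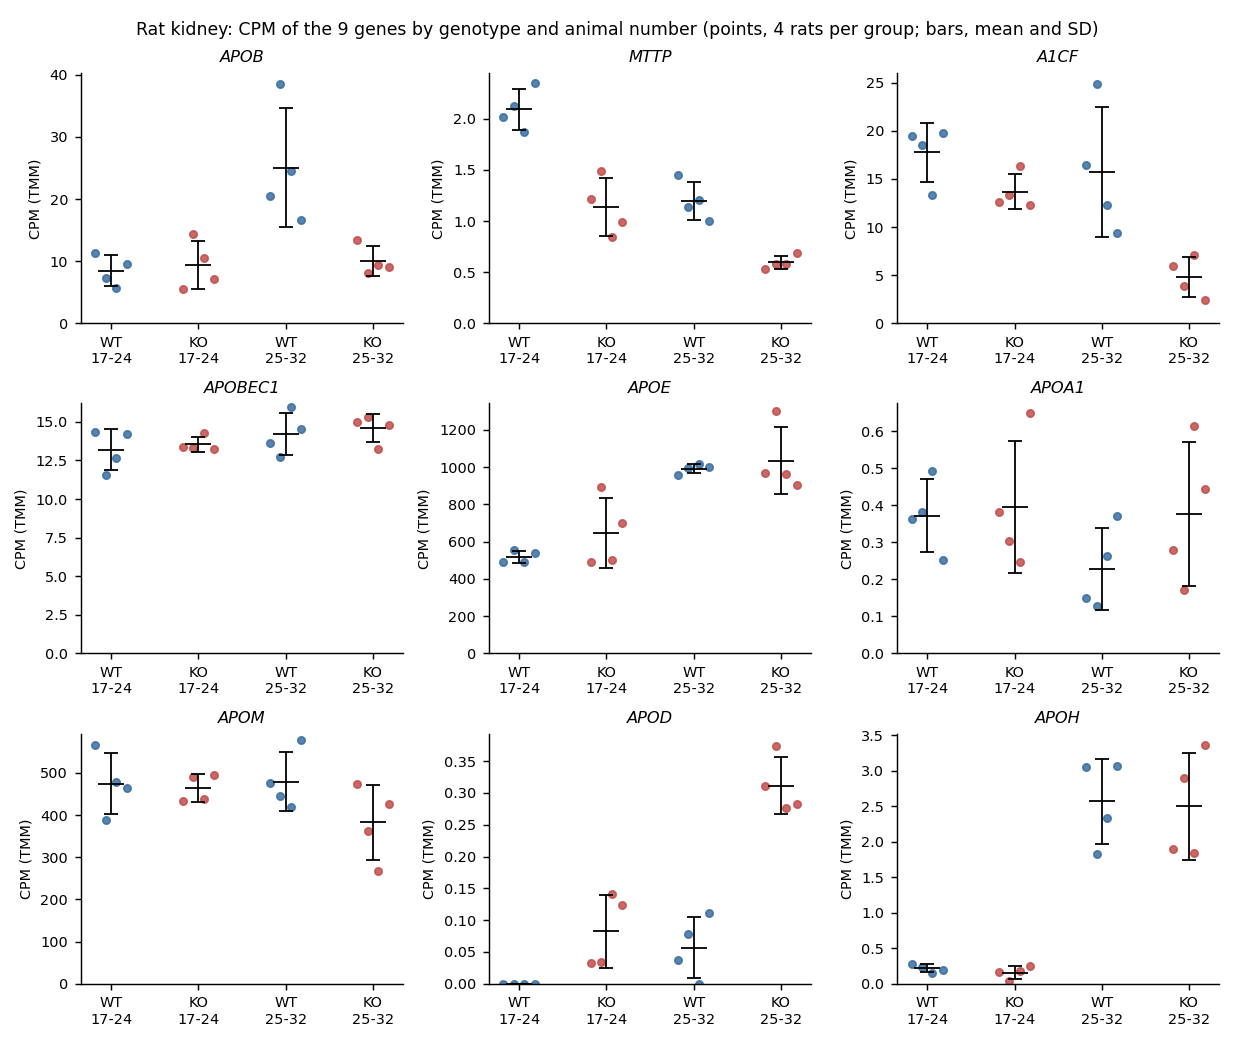
CPM with TMM scaling (vertical axis, from 0) of the 9 genes in the rat table, by genotype and number range, with 1 point per rat (4 per group, Ctns WT blue and Ctns KO red) and black bars for the mean and SD. APOB is high only in Ctns WT rats 25 to 31, A1CF low only in Ctns KO rats 26 to 32, MTTP lower in Ctns KO rats of both ranges, and APOE and APOH higher in the higher numbers of both genotypes.

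Of the 9 members in the rat table, the filter on low counts left 7 in the fit over all rats (without APOA1 and APOD), and 1 of them, MTTP, was called, as lower, against 15.2% of all symbols called higher and 12.3% called lower. None of the 7 had groups without overlap over all 16 rats, against 5.84% of symbols. In rats 17 to 24, 1 of 7 was called, again MTTP as lower (all symbols: 5.07% higher, 2.19% lower), and 1 had groups without overlap (all symbols: 13.7%). In rats 25 to 32, APOB, MTTP and A1CF were called lower, 3 of 7 (all symbols: 21.8% higher, 22.1% lower), and the same 3 had groups without overlap (all symbols: 40.3%). Nothing is read from these counts, since the ranges and the contrast chose the members. Over all rats APOB was also called without Ctns WT rat 19 or 21, and A1CF without Ctns KO rat 20, 22 or 24 or Ctns WT rat 31. MTTP lost its call in rats 17 to 24 without Ctns KO rat 22 or 24 or Ctns WT rat 23, at log2 fold changes of -0.81 to -0.76.

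A comparison of Ctns WT rats 25 to 31 with Ctns WT rats 17 to 23 asks how far the genes differed between number ranges without any change of genotype. The same 8 Ctns WT rats stand in the contrasts that chose the members, so these values too are a description, with no test. APOB was higher in the higher numbers, at 25.04 ± 9.59 CPM against 8.46 ± 2.48 CPM (SD over 4 rats each), with a log2 fold change of 1.56 (SE 0.28). MTTP went the other way, at 1.20 ± 0.188 CPM against 2.09 ± 0.203 CPM, a log2 fold change of -0.83 (SE 0.18). APOE was at 992.5 ± 26.1 CPM against 518.8 ± 32.9 CPM, a log2 fold change of 0.91 (SE 0.07).

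The largest of these differences among the members was that of APOH, at 2.57 ± 0.600 CPM against 0.215 ± 0.0559 CPM, a log2 fold change of 3.55 (SE 0.28). For each of these 4 genes the 4 rats of 1 range lay apart from the 4 of the other. A1CF had a log2 fold change of -0.19 (SE 0.27), and its ranges overlapped. The log2 fold changes were 0.08 (SE 0.10) for APOBEC1, -0.01 (SE 0.12) for APOM and -0.77 (SE 0.40) for APOA1. Of the 8 members in that fit, 3 were past an adjusted p of 0.05 as higher and 1 as lower, against 8.79% of all 11504 symbols called higher and 9.54% called lower. The groups were without overlap for 4 of the 8, against 22.7% of symbols.

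The same 4 Ctns WT rats 25 to 31 stand in the comparison of genotypes within the higher numbers and in that of number ranges. For APOB both differences rest on those animals. Ctns KO rats had APOB at 9.39 ± 3.90 CPM in the lower numbers and 10.02 ± 2.35 CPM in the higher numbers (SD, n = 4 each). For A1CF it was the Ctns KO rats that differed in level, at 13.7 ± 1.84 CPM in the lower and 4.82 ± 2.10 CPM in the higher numbers, while Ctns WT rats were at 17.8 ± 3.03 and 15.7 ± 6.75 CPM. In a fit with genotype, range and their interaction, the change in Ctns KO rats differed between ranges by -1.48 (SE 0.43) for APOB and by -1.32 (SE 0.41) for A1CF on the log2 scale, and by -0.13 (SE 0.28) for MTTP. Among 8 members in that fit these 2 were called, both lower, against 7.1% of all symbols called higher and 7.64% called lower, which is again a description. The term for APOB was not called without Ctns KO rat 20, 22, 28 or 32 or Ctns WT rat 19, 21 or 27, at -1.44 to -1.19, nor that for A1CF without Ctns KO rat 18, 20, 22, 24, 28 or 32 or Ctns WT rat 17, 19, 21, 25 or 27, at -1.37 to -1.004.

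**Figure D3:**
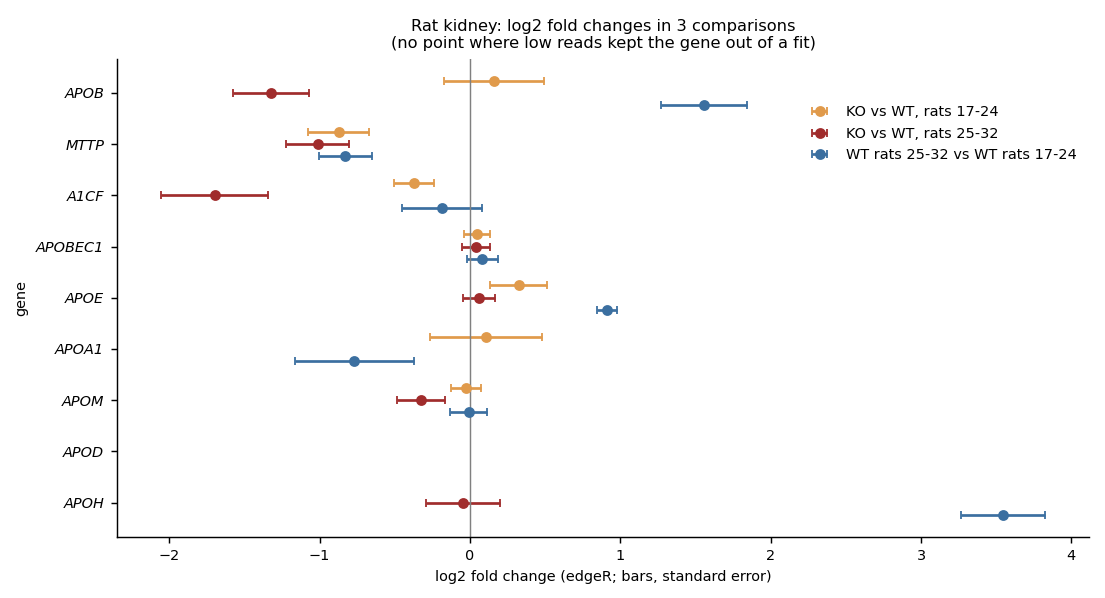
Log2 fold changes from edgeR (horizontal axis) of the 9 genes in rats, for Ctns KO against Ctns WT in rats 17 to 24 (orange) and 25 to 32 (dark red) and for Ctns WT rats of the higher against the lower numbers (blue), with bars of 1 standard error. APOB lies at -1.32 for genotype in the higher numbers and at 1.56 between the ranges, MTTP is below 0 in all 3 comparisons, and APOD has no point.

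The genes whose pattern over animals was most like that of APOB and A1CF were listed by the root-mean-square difference of log2 CPM, each gene set to 0 at its Ctns WT mean. For APOB over the 8 mice these were SPNS3 (0.153), GC (0.158), UGT1A1 (0.182), ABCB1 (0.231) and FGB (0.2403). GC is the plasma vitamin D-binding protein, UGT1A1 conjugates bilirubin, and FGB is a fibrinogen chain. Over the 16 rats they were ESR1 (0.3804), CD28 (0.421), GAS2 (0.421), BHMT (0.427) and SLC6A4 (0.432), with larger differences than in mice. For A1CF the mouse genes were RIBC1 (0.0944), FAHD1 (0.113), ALDH8A1 (0.117), FMO4 (0.119) and GGACT (0.121). The rat genes were ARFGEF3 (0.269), COL4A4 (0.302), LIFR (0.314), GREB1 (0.323) and COL4A3 (0.331), among which COL4A3 and COL4A4 encode chains of the collagen of the glomerular basement membrane. For neither member was a gene listed in both species.

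Markers of other cells moved with genotype and with the number range. The summed level of 19 proximal tubule markers was 28714 to 38483 CPM in Ctns WT and 26293 to 28742 CPM in Ctns KO mice. Of these 19, 2 were called lower (all symbols: 0.817%). In rats, 17 such markers summed to 30601 to 34907 CPM in Ctns WT rats 17 to 23, 25741 to 27849 CPM in Ctns KO rats 18 to 24, 42923 to 49156 CPM in Ctns WT rats 25 to 31 and 21778 to 27723 CPM in Ctns KO rats 26 to 32. Of these 17 markers, 12 were called lower in Ctns KO over all rats, where 12.3% of all symbols were called lower. Between the Ctns WT ranges, 10 were called higher and 1 lower in the higher numbers, where 8.79% and 9.54% of all symbols were called. In that comparison of Ctns WT rats, 8 of 11 podocyte and endothelium markers were called lower (967.1 to 1098 CPM in the higher and 1316 to 1456 CPM in the lower numbers), as were 5 of 7 thick limb and distal nephron markers, with 1 higher (3540 to 4244 against 4448 to 5292 CPM). The proximal tubule sum was thus highest in the 4 rats in which APOB was highest, and the part of these markers in the result was not tested.

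Macrophage markers summed to 181 to 190 CPM in Ctns WT and 279 to 355 CPM in Ctns KO mice (14 markers, 8 called higher, MARCO at 0 reads). In rats the sum was 142 to 261 CPM in Ctns WT and 222 to 601 CPM in Ctns KO animals, with 9 of 11 tested markers called higher. Fibroblast and pericyte markers were called higher in Ctns KO kidneys for 5 of 12 in mice and 7 of 10 in rats. Over all symbols, the share called higher was 3.5% in mice and 15.2% in rats. Hepatocyte markers, 13 genes such as albumin, summed to 92.1 to 98.6 CPM in Ctns WT rats 17 to 23 and 93.2 to 106 CPM in Ctns WT rats 25 to 31. Between these Ctns WT groups, 1 of 7 tested hepatocyte markers was called higher and 2 lower in the higher numbers (all symbols: 8.79% and 9.54%). The same 13 genes summed to 106 to 114 CPM in Ctns KO rats 18 to 24 and 158 to 211 CPM in Ctns KO rats 26 to 32. Of 8 tested markers, 5 were called higher over all rats (all symbols: 15.2%). The sums do not tell which cells made these RNAs, and they do not show that hepatocytes were present. Enterocyte markers, with 7 of 8 in each table, summed to 1323 to 1510 CPM over both groups of mice, with 0 of 7 called (all symbols: 3.5% higher, 0.817% lower). In rats they summed to 558.5 to 686 CPM in Ctns WT and 548 to 649 CPM in Ctns KO animals of the lower numbers. In the higher numbers they summed to 529 to 596 CPM in Ctns WT and 387 to 423 CPM in Ctns KO animals. Both tested markers were called lower there (all symbols: 22.1% lower). FABP2 and CDX2 had 0 reads in both groups of mice, and FABP2, ALPI and SI in all 4 groups of rats. The enterocyte sums thus rest on other genes of the list, and they do not show that enterocytes were present. In Ctns KO rats 26 to 32, where the enterocyte sum was lower, the proximal tubule sum was lower too. The part of these cell types in the members' values was not tested.

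Around the 10 genes, 7 lists of 150 genes covered the rest of the pathway. They were written from general knowledge of the pathway with earlier results of these data known, so the p-values of their genes are no independent support. In mice 138 of them were tested. Limma called 4, all higher in Ctns KO kidneys, against the 3.5% higher and 0.817% lower over all symbols. These were ABCA1, the exporter of cholesterol to APOA1, with a log2 fold change of 0.33 (SE 0.07, adjusted p = 0.0462, limma), and the endocytic receptor LRP1, with 0.22 (SE 0.04, adjusted p = 0.0215, limma). PLTP, which transfers phospholipid between lipoproteins, changed by 0.11 (SE 0.02, adjusted p = 0.0191, limma), and LCN2, a secreted lipocalin and no receptor, by 0.09 (SE 0.02, adjusted p = 0.0393, limma). On the recovered reads, where low values are not compressed, edgeR gave log2 fold changes of 0.54 (SE 0.11) for ABCA1, 0.35 (SE 0.07) for LRP1, 0.53 (SE 0.10) for PLTP and 1.501 (SE 0.27) for LCN2, and called all 4. The call by limma was lost for ABCA1 without any 1 mouse other than Ctns WT mouse 7 (0.27 to 0.35) and for LCN2 without any 1 mouse other than Ctns KO mouse 3 (0.08 to 0.10). It was lost for LRP1 without Ctns KO mouse 3 or Ctns WT mouse 1, 2 or 7 (0.20 to 0.22), and for PLTP without Ctns KO mouse 5 or Ctns WT mouse 4 or 7 (0.11 to 0.12). Other fits called list genes in both directions. With edgeR on the recovered reads, 5 of 118 were higher and 4 lower (all genes: 6.06% and 2.85%). With DESeq2 on those reads, 6 of 118 were higher and 12 lower. Limma on genes with a mean value of at least 0.1 called 3 of 101 higher and 2 lower. Shares over all symbols were not worked out for these last fits. On the main limma scale, which compresses low values, the median log2 fold change of the 138 genes was -0.00088, beside 2.5e-05 over all symbols.

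In rats 105 of the 150 genes were tested over all animals, and 20 were called higher and 17 lower in Ctns KO animals, beside 15.2% and 12.3% over all symbols. With the number range as a covariate, 27 of the 105 were called higher and 25 lower, and the share over all symbols was not worked out. The values below for all rats come from the fit without the range. The list of hepatocyte and proximal tubule nuclear factors had 0 of 17 higher and 7 lower, with a median log2 fold change of -0.24 beside -0.02 over all symbols. PPARA, the receptor that turns on fatty acid oxidation, was at 16.4 ± 7.47 CPM in Ctns KO and 33.2 ± 7.64 CPM in Ctns WT rats (SD over 8 rats each), with a log2 fold change of -1.01 (SE 0.26, adjusted p = 0.0079, edgeR). HNF4A, a master regulator of hepatocyte and tubule genes, was at 202.5 ± 41.9 against 325.8 ± 56.8 CPM (log2 fold change -0.69, SE 0.13, adjusted p = 0.00116, edgeR). HNF4G, its relative, was at 15.5 ± 3.40 against 23.998 ± 6.11 CPM (log2 fold change -0.63, SE 0.16, adjusted p = 0.0075, edgeR).

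In rats 25 to 32, 9 of 17 nuclear factors were lower and 0 higher, with a median log2 fold change of -0.60, where 22.1% of all symbols were called lower. In rats 17 to 24 edgeR called 0 of 17, with a median of -0.10, where 2.19% of all symbols were called lower. Of those 17, 7 had an unadjusted p under 0.05, and DESeq2 called 3, all lower. The log2 fold changes in the higher and lower numbers were -1.10 and -0.28 for HNF4A, -1.14 and -0.10 for HNF4G, and -1.79 and -0.37 for PPARA. The interaction term was past the threshold for all 3, at -0.82 (adjusted p = 0.00537), -1.04 (adjusted p = 0.00352) and -1.42 (adjusted p = 0.0202) by edgeR. It passed for 5 of the 17 in all, where 7.1% of all symbols were called higher and 7.64% lower. In mice limma called 0 of 23 nuclear factors, with HNF4A at -0.28 (SE 0.08, adjusted p = 0.1), while 4 had an unadjusted p under 0.05. On recovered reads edgeR called 2 of 18, 1 of them lower and the other higher, where 6.06% of all genes were called higher and 2.85% lower. DESeq2 on those reads called 3, with 2 of them lower and the other higher. Proximal tubule markers fell in the same rats, and the share of the change that goes with them was not tested.

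The list of lipoprotein assembly and secretion had 0 of 21 higher and 3 lower over all rats (all symbols: 15.2% higher, 12.3% lower). CIDEB, which helps to lipidate APOB particles, changed by -0.33 (SE 0.07, adjusted p = 0.00213, edgeR), and MIA2, a cargo receptor of endoplasmic reticulum exit sites, by -0.28 (SE 0.07, adjusted p = 0.00842, edgeR). SEC24C, a coat protein of the vesicles that leave there, changed by -0.13 (SE 0.04, adjusted p = 0.0338, edgeR), and lost its call without any 1 of Ctns KO rats 20, 26, 28, 30 and 32 or Ctns WT rats 23, 25, 27, 29 and 31, at -0.13 to -0.10. For MIA2, 10 of its rat values were not whole reads, so reads may be shared with another gene. In the interaction fit, MIA2 fell more in the higher numbers (-0.39, adjusted p = 0.0121, edgeR), while CIDEB did not pass (-0.19, adjusted p = 0.261, edgeR).

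Among other apolipoproteins, 3 of 10 were higher and 1 lower over all rats (all symbols: 15.2% higher, 12.3% lower). CLU (clusterin, also known as apolipoprotein J) was at 345.9 ± 63.4 CPM in Ctns KO and 235.4 ± 27.9 CPM in Ctns WT rats, a log2 fold change of 0.56 (SE 0.10, adjusted p = 0.000967, edgeR). It changed by 0.21 (adjusted p = 0.0352) in rats 17 to 24 and by 0.89 (adjusted p = 6.13e-05) in rats 25 to 32 by edgeR, and the interaction term was 0.69 (adjusted p = 0.0014). PON3, an antioxidant enzyme of high-density lipoprotein, changed by 0.55 (SE 0.13, adjusted p = 0.00501, edgeR). APOL1 changed by 0.41 (SE 0.10, adjusted p = 0.00445, edgeR), but none of its 16 rat values was a whole read, so the symbol may pool several genes.

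The receptors and uptake list had 9 of 22 higher and 3 lower over all rats (all symbols: 15.2% higher, 12.3% lower). LCN2 had the largest change, from 2.71 ± 0.389 to 43.3 ± 42.7 CPM, a log2 fold change of 3.99 (SE 0.62, adjusted p = 0.00021, edgeR), with 1.71 in rats 17 to 24 and 4.74 in rats 25 to 32. It is a marker of tubular injury and not a lipoprotein receptor. MSR1, a scavenger receptor of macrophages, changed by 1.08 (SE 0.16, adjusted p = 0.000139, edgeR), in the same rats in which macrophage markers were higher. LRP8, a receptor of the LDL receptor family, changed by 0.66 (SE 0.23, adjusted p = 0.0413, edgeR) and lost its call without any 1 of Ctns KO rats 24, 26, 28 and 30 or Ctns WT rats 19, 21, 23, 25 and 29, at 0.55 to 0.68.

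In the list of lipases, 2 of 10 were higher and 3 lower over all rats (all symbols: 15.2% higher, 12.3% lower). ANGPTL4, an inhibitor of lipoprotein lipase, was at 8.36 ± 6.66 CPM in Ctns KO and 2.07 ± 1.03 CPM in Ctns WT rats (log2 fold change 2.02, SE 0.45, adjusted p = 0.003, edgeR). MGLL, monoglyceride lipase, was at 403.8 ± 51.3 against 671.5 ± 172.7 CPM (log2 fold change -0.73, SE 0.14, adjusted p = 0.00116, edgeR). PNPLA3, a lipid droplet lipase, changed by -0.65 (SE 0.17, adjusted p = 0.00957, edgeR). In Ctns WT rats both lipases were higher in the higher numbers, MGLL by 0.61 (adjusted p = 0.00589) and PNPLA3 by 0.81 (adjusted p = 0.00117) by edgeR.

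The sterol list had 4 of 14 higher and 0 lower over all rats (all symbols: 15.2% higher, 12.3% lower). CYP7B1, an oxysterol hydroxylase, changed by 0.53 (SE 0.10, adjusted p = 0.00079, edgeR), TSPO, a mitochondrial outer membrane protein, by 0.49 (SE 0.12, adjusted p = 0.00548, edgeR), and NCEH1, a cholesteryl ester hydrolase, by 0.20 (SE 0.07, adjusted p = 0.04, edgeR). ABCA1, called higher in mice, was at -0.01 (SE 0.09, adjusted p = 0.965, edgeR) in rats, and the difference between species was not tested. The call for NCEH1 was lost without any 1 of Ctns KO rats 24, 26, 28 and 30 or Ctns WT rats 17, 19, 21, 29 and 31, at 0.17 to 0.20. By range, 0 of 14 sterol genes were called in rats 17 to 24 (all symbols: 5.07% higher, 2.19% lower). In rats 25 to 32, 6 of 14 were higher and 0 lower (all symbols: 21.8% and 22.1%). The interaction term passed for 3 of 14, all higher in the higher numbers (all symbols: 7.1% higher).

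Of the RNA editing factors and A1CF relatives, 2 of 11 were higher over all rats and 0 lower (all symbols: 15.2% higher, 12.3% lower). ADAR, which edits adenosine in double-stranded RNA, was at 92.0 ± 7.50 CPM in Ctns KO and 70.8 ± 7.52 CPM in Ctns WT rats (log2 fold change 0.38, SE 0.07, adjusted p = 0.000643, edgeR). APOBEC3B, another cytidine deaminase, changed by 1.10 (SE 0.22, adjusted p = 0.00135, edgeR), from 0.937 ± 0.254 to 2.02 ± 0.636 CPM. Both were also called within each range, and the interaction term did not pass for either (adjusted p = 0.345 for ADAR and 0.496 for APOBEC3B, edgeR). Among the other RNA-binding proteins, 2 were chosen after their values were seen. RBM47, which can also serve as cofactor of APOBEC1, had a log2 fold change of -0.33 (SE 0.13, adjusted p = 0.0712, edgeR) over all rats and an interaction term of -0.70 (adjusted p = 0.0275, edgeR). SYNCRIP, a close relative of A1CF, was at 0.03 (SE 0.08, adjusted p = 0.8, edgeR).

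**Figure D4:**
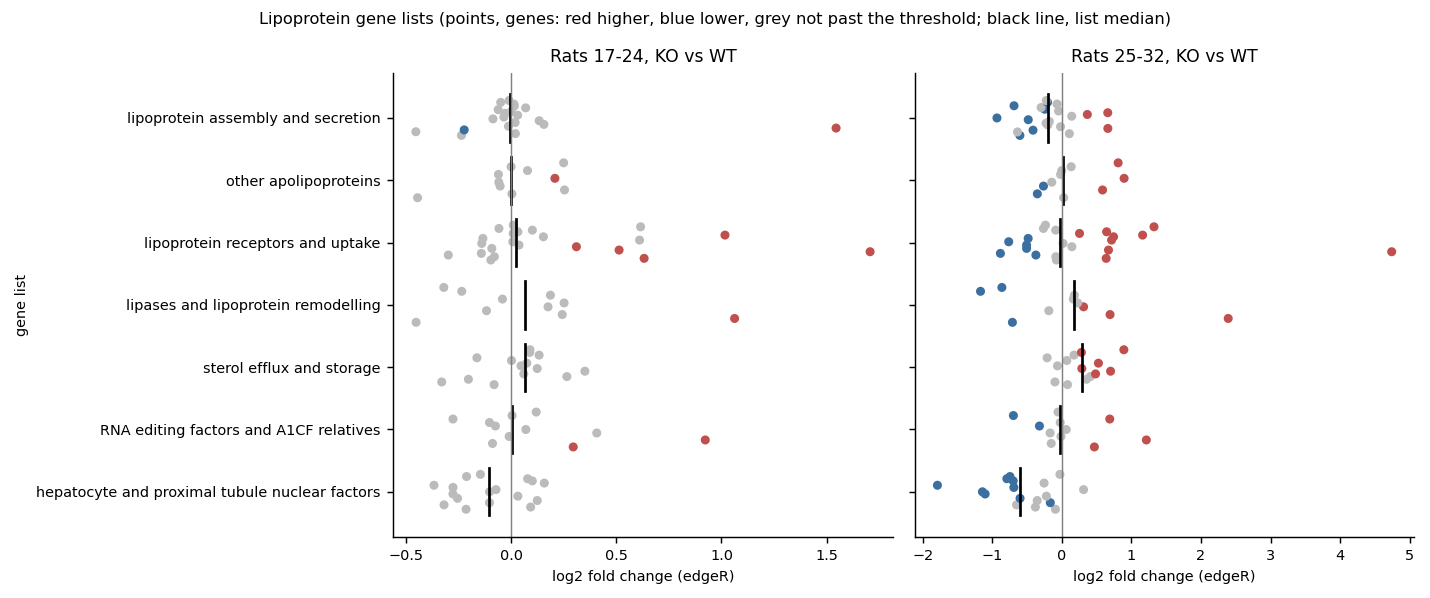
Log2 fold changes from edgeR (horizontal axes, of different span) of the genes of 7 lists in Ctns KO against Ctns WT rats, numbers 17 to 24 on the left and 25 to 32 on the right, with 1 point per gene (red higher, blue lower, grey not past an adjusted p of 0.05) and a black line at the list median. The nuclear factors have their median at -0.10 on the left and -0.60 on the right, and LCN2 is the point farthest to the right in both.

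Within the ranges, 10 of 104 list genes were higher and 1 was lower in Ctns KO rats 17 to 24 (all symbols: 5.07% and 2.19%), and 27 of 105 were higher and 29 lower in Ctns KO rats 25 to 32 (all symbols: 21.8% and 22.1%). The change in Ctns KO rats differed between ranges for 26 of 106 list genes, 10 higher and 16 lower in the higher numbers (all symbols: 7.1% and 7.64%). Between the Ctns WT rats of the higher and the lower numbers, 13 of 104 list genes were higher and 12 lower (all symbols: 8.79% and 9.54%), with HNF4G higher by 0.49 (adjusted p = 0.0399) and CLU and TSPO lower, at -0.30 (adjusted p = 0.0138) and -0.39 (adjusted p = 0.00351), by edgeR. Medians of these genes were 0.0053, -0.07, -0.05 and 0.01 in the 4 comparisons, beside -0.0020, -0.01, -0.0050 and -0.01 over all symbols.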

How the data were processed

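RNA was sequenced from mouse and rat kidney with stranded mRNA libraries. The submitters' processing notes name bcl2fastq 2.20, STAR 2.7.3, DESeq2 1.24.0, R 3.6.1 and the builds mm10 and rn5. Counting, annotation and the mapping to human-style symbols are not given in the sources used here. For the mouse the authors deposited a scaled signal per symbol, worked out from the values as reads plus 0.5 over the library's 75th percentile plus 0.5, and 99.0% of values gave whole reads within 0.01. The rat table that the authors deposited holds estimated counts with 1/6 added, which was taken off before rounding, and 97.7% were whole.

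Mouse values were tested with limma 3.58.1 (trend, robust) on log2(value + 1), and rat counts with edgeR 4.0.16 (quasi-likelihood, robust, TMM, filter on low counts), in R 4.3.3. Adjustment followed Benjamini and Hochberg over all symbols tested, with 0.05 as the threshold. The scripts were tested on simulated data. No pair of libraries in a group agreed within sampling noise (chi-square over its degrees of freedom was at least 12.3 in 12 mouse pairs and 8.60 in 56 rat pairs). Labels give 1 sample per animal, and p-values measure the spread between these animals.

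The members and lists were chosen with earlier results of these data known. Fits that share animals with that choice give no test for the members. The p-values of list genes come from the same animals and are not independent of that choice. Genes named were the 10 members, up to 3 genes per list and species with the largest change past the threshold and a mean of at least 1 CPM, and the 5 symbols nearest to APOB and to A1CF. Alternatives were edgeR and DESeq2 1.42.0 on recovered mouse reads, DESeq2 and its size factors in rats, filters, a pseudocount of 0.1, the number range as a covariate, 1 fit over 4 rat groups, and leaving out each animal. RPKM used the exonic length of mm10 genes in GENCODE vM21.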

Additional observations from a re-analysis of the deposited data

Results flagged for a closer look

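In the fit with an interaction of genotype and number range, the change of APOB in Ctns KO rats was lower in rats 25 to 32 than in rats 17 to 24 by -1.48 on the log2 scale, and that of A1CF by -1.32. Both terms passed the threshold of edgeR's fit over all symbols, but the ranges had been used to choose these genes, so the difference is a description. Ctns KO rat 28 stood apart from the other Ctns KO rats of its range in APOE, at 1300 CPM with the next rat at 971 CPM. Ctns KO rat 22 stood apart in APOBEC1, at 14.26 CPM with the next rat at 13.35 CPM. These 2 came from 55 groups of 4 animals examined, and chance alone marks about 1 group in 20 this way.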

How the results depend on the processing

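No value of a member or named list gene changed direction under the alternatives where it was called. Members called in mice were 5 with DESeq2 in place of 2 (APOB, MTTP and APOM were added). List genes called in mice were 9 with edgeR on recovered reads (5 higher, 4 lower) and 18 with DESeq2 (6 higher, 12 lower), in place of 4. Members called over all rats were 3 with DESeq2 (APOB and A1CF added), 2 without the filter on low counts (APOD added, as higher) and 2 with the range of numbers as a covariate (A1CF added), in place of 1. For the difference between ranges, 1 member was called without the filter in place of 2. The cause was not tested.

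Leaving out each animal gave 0 to 1 members and 1 to 3 list genes in mice, 1 to 2 and 30 to 41 over all rats, 0 to 2 and 5 to 12 in rats 17 to 24, 3 to 4 and 48 to 57 in rats 25 to 32, 4 to 4 and 19 to 26 between Ctns WT ranges, and 0 to 2 and 16 to 28 for the difference between ranges. Of 669 values of members under alternatives, 617 kept their side of the threshold, 36 lost a call and 16 gained one. Among those 617, 579 also kept their sign and 38 that were not called changed it, such as APOE in mice and APOH in rats. Of 447 values of named list genes, 397 kept both and 50 lost a call. No paired analysis was possible because the genotypes share no animal numbers. Low reads limit APOA1, APOD and APOH, and the number of animals limits the rest.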
